A study of Homo sapiens with 25 samples.

Results

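The mRNA of β-actin, ACTB, carries the zipcode that IGF2BP1 is best known for binding, and it was followed here together with 8 mRNAs of the actin system in RNA that came down with mCherry-IGF2BP1. The 9 genes were taken by symbol: the cytoplasmic actins ACTB and ACTG1, the monomer-binding profilin PFN1, the filament-severing cofilin CFL1, the Arp2/3 complex subunits ACTR2, ACTR3, ARPC2 and ARPC5, and SRF, the transcription factor that drives actin genes. All 9 of the 63086 genes in the count files were found, and all 9 were among the 8734 protein-coding genes that were tested. None of them was listed at 0 in any library, and every mCherry library held each of them above 10 CPM (protein-coding counts scaled to a common library size), the level the filter asked for.

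The study captured IGF2BP1 fused to mCherry with RFP-Trap beads from lysates of HCT116 cells, a human colorectal carcinoma line, and sequenced the RNA (RIP-seq). It asked whether mutations in the disordered linkers of the protein change the RNAs it holds, at rest and under oxidative stress. Of the 25 libraries, 23 came from mCherry-IGF2BP1 cells, with 3 for each line and treatment except the RQ mutant in arsenite with 2. The other 2 were parental HCT116 cells without the fusion, 1 for each treatment. All mCherry lines carried knockouts of IGF2BP2 and IGF2BP3 and the Tet-OsTIR1-PURO cassette, while the parental samples are labelled only as HCT116. The lines expressed wild-type (WT) IGF2BP1, the phosphomimetic mutants S181E or Y396E, or the RQ mutant, in which 4 arginines (R167Q, R168Q, R174Q and R178Q) were replaced. Each line was a population of lentivirally transduced cells sorted within a narrow mCherry gate, so a line is a single population and its libraries are separately grown dishes of it, whose spread the p-values measure. Cells received PBS as the control or 500 µM sodium arsenite for 2 h. Total RNA of the same cells was not used here, so a difference in the RIP can come from the level of the mRNA in the cells as well as from its recovery, and more RNA per cell cannot be told apart from more cells that hold it.

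Actin filaments grow from monomers that profilin delivers to filament ends, branch where the Arp2/3 complex binds an existing filament, and are severed by cofilin. SRF, with its MRTF coactivators, senses the pool of free monomers and transcribes ACTB and many other actin genes. The IGF2BP1 ortholog ZBP1 was named for the zipcode, a stretch of the ACTB 3′ UTR that its KH domains hold so that the mRNA travels to the cell edge untranslated, and Src kinase releases it by phosphorylating the tyrosine that is replaced in Y396E.

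The zipcode is shown first because it is the sequence that ZBP1, the ortholog of the study's protein, was named for. It was sought in 1 canonical transcript per gene (GENCODE 44, hg38) as GGACT followed by ACACCC within a window of 30 bases, on the sense strand of the 3′ UTR only. ACTB held the pair once, its first word starting at base 3 after the stop codon, in the last exon at chr7:5527719-5527747 on the minus strand, with a gap of 16 bases between the words. The capitals mark the words, written as DNA 5′ to 3′.
ACTB zipcode: gcGGACTatgacttagttgcgttACACCC
No other of the 9 genes held the full pair. Of 19515 3′ UTRs searched, 236 (1.21%) did. The shorter words GGAC and ACAC, which lie inside the longer ones, were also found in PFN1 at chr17:4945743-4945752 on the minus strand and in SRF at chr6:43179501-43179524 on the plus strand, both in the 3′ UTR, with gaps of 2 and 16 bases.
PFN1 short pair: GGACagACAC
SRF short pair: GGACcgtgccccacctccccACAC
The short pair is common, with 4631 of the 3′ UTRs (23.7%) holding it, and GGACT is also a form of the m6A consensus, so a match describes letters only.

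The mCherry libraries held 22246381 to 60273548 counts (median 34034910), while the parental libraries held 1238013 in control and 18942497 in arsenite. Mitochondrial rRNA took 31.8 to 38.2% of the counts in control and 22.2 to 30.1% in arsenite mCherry libraries, and CPM are taken over protein-coding genes, which leaves it out. The bait's own mRNA had no read in either parental library and 66.4 ± 4.82 CPM (SD, n = 3) in WT control. Of the epithelial markers, KRT8, KRT18, KRT19, EPCAM and CDH1 were above 28.7 CPM in all 23 mCherry libraries, while CDX1 was at 0 in each of them and VIL1 reached at most 0.738 CPM. Of the markers of other cells, COL1A1 reached 13.4 CPM and the other 6 at most 1.42 CPM in these libraries.

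Scaled to the length of their exons, the 9 mRNAs spanned a wide range of levels in the WT control RIP. PFN1 stood highest at 1461 ± 15.6 CPM per kb (SD, n = 3), followed by ACTG1 at 564 ± 58.8, CFL1 at 413 ± 36.0 and ACTB at 220.1 ± 14.4. The Arp2/3 subunits were far lower, with ARPC2 at 95.5 ± 23.4, ACTR2 at 23.9 ± 3.09, ARPC5 at 20.2 ± 4.25 and ACTR3 at 11.2 ± 0.307 CPM per kb, and SRF had 54.0 ± 7.11. After arsenite the order at the top was PFN1 at 2896 ± 143, ACTG1 at 846 ± 31.4, ACTB at 589 ± 19.8 and CFL1 at 436 ± 26.9 CPM per kb, so ACTB and CFL1 had changed places. Few stretches of these mRNAs have exact copies elsewhere, base for base, in the genome or in a transcript of another gene. Of the 100-base windows of the canonical mRNA, 9.32% for PFN1, 2.31% for ACTR2 and at most 1.57% for each of the others do. Near-identical copies were not sought, so the share of ambiguous reads was not measured.

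The first comparison asks how the share of each mRNA in the RIP compares with its share without any mCherry-IGF2BP1. Here the zipcode mRNA did not stand out. CPM are shares of a library, so the ratios do not compare the amounts of RNA recovered, which were not measured here. ACTB took a smaller share of the WT RIP than of the parental RIP. The WT control libraries held 723, 722 and 644 CPM and the parental control library 2605 CPM (95% exact Poisson interval 2523 to 2688), a ratio of 0.267 ± 0.0175 (SD over the 3 WT libraries). In arsenite the WT libraries held 1885, 1911 and 1792 CPM against 3084 CPM (95% exact Poisson interval 3061 to 3106), a ratio of 0.604 ± 0.0203. Every mCherry library of either treatment lay below the parental library of that treatment. ACTG1 was below its parental level too, at ratios of 0.485 ± 0.0507 in control and 0.420 ± 0.0156 in arsenite, as was ACTR2 at 0.319 ± 0.0413 and 0.544 ± 0.0393. PFN1, which lacks the full zipcode pair, was the most enriched of the 9, with ratios of 5.68 ± 0.0605 in control and 5.79 ± 0.285 in arsenite.

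ARPC5 and SRF stood further above the parental level in control than in arsenite. ARPC5 had a ratio of 3.40 ± 0.715 in control and 1.20 ± 0.157 in arsenite, and SRF had 3.42 ± 0.450 and 0.872 ± 0.0441, so that in arsenite each WT library held less SRF than the parental one. CFL1 (1.82 ± 0.158 and 1.34 ± 0.0828), ARPC2 (2.47 ± 0.605 and 1.46 ± 0.0282) and ACTR3 (1.73 ± 0.0476 and 0.895 ± 0.0390) lay between these. Over the tested genes with more than 3 parental counts, the median ratio was 1.02 in control (n = 5076) and 1.14 in arsenite (n = 8700). Genes were tested for their level in the mCherry RIP, and those with 3 or fewer parental counts were left out. High ratios can therefore be missing, above all in control, where 5076 of 8734 tested genes remained. TMM scaling also draws such medians toward 1, so they are no independent measure of background. With 1 parental library per treatment there is no test, and the intervals cover counting error only, since PCR copies are not independent molecules. Total counts in place of TMM factors lowered the ACTB ratio to 0.116 in control and 0.367 in arsenite. The factors act on every gene of a library, so the ratios of the other genes fall with them. Whether CFL1 in both treatments, ACTR3 in control, and ARPC2 and ARPC5 in arsenite lay above the parental level thus depends on the scaling.

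**Figure D1:**
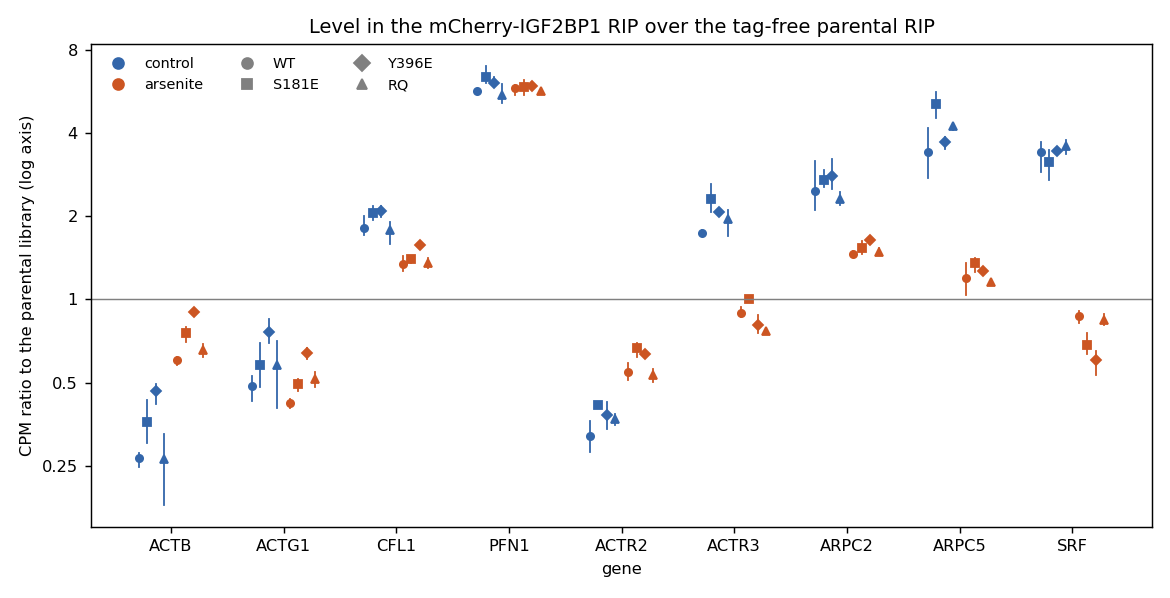
Ratio of CPM in the mCherry-IGF2BP1 RIP to CPM in the parental library of the same treatment, on a log axis, for the 9 genes. Symbols are means of a line and vertical lines its lowest and highest library; ACTB, ACTG1 and ACTR2 lie below 1 in every group, and PFN1 lies between 5.12 and 6.99.

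The same was asked of every tested gene with the zipcode words. Of 130 tested genes whose 3′ UTR held the full pair, 77 had more than 3 parental counts in control and 129 in arsenite. Their median ratio over the parental RIP was 1.14 in control, against 1.01 over all 5060 such genes with a 3′ UTR, and 1.35 in arsenite, against 1.13 over 8679. The middle of the list ran from 0.623 to 2.78 between quartiles in control, so the ACTB ratio lay below the lower quartile of these 77 genes. Genes with 3 or fewer parental counts are missing here too. The medians and quartiles in control can therefore lack the most enriched genes, with or without the pair.

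Arsenite against control gave the largest differences among the 9 mRNAs. In WT cells ACTB, ACTG1, PFN1, ACTR2 and ACTR3 rose, ARPC5 and SRF fell, and CFL1 and ARPC2 passed in neither direction. Calls needed an adjusted p under 0.05 together with a difference over 20%. By this rule 5 of 9 were called higher and 2 of 9 lower, in a comparison where 35.4% of all 8734 genes tested were called higher and 31.8% lower. In S181E cells 4 were called higher and 2 lower (all genes 33.3 and 34.6%), in Y396E cells 4 and 2 (all genes 31.3 and 33.8%), and in RQ cells 4 and 2 (all genes 32.4 and 32.3%), ACTR3 being the gene called in WT alone. The median log2 fold change of the 9, taken over genes called in both directions, was 0.52 in WT, 0.26 in S181E, 0.13 in Y396E and 0.14 in RQ, against 0.03 in WT over all genes tested.

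ACTB, the zipcode mRNA and one of the main cytoplasmic actins (ENSG00000075624.17, chr7:5526409-5563902 on the minus strand), rose in all 4 lines. In control the WT libraries held 723, 722 and 644 CPM, the S181E libraries 894, 1125 and 784, the Y396E libraries 1089, 1287 and 1270.0 and the RQ libraries 741, 852 and 470.4. In arsenite WT held 1885, 1911 and 1792 CPM, S181E 2352, 2456 and 2166, Y396E 2828, 2768 and 2733 and RQ 1908 and 2130.1. Each arsenite library lay above each control library, whatever the line. The log2 fold change was 1.41 ± 0.15 (SE, edgeR adjusted p = 2.8e-08) in WT, a rise of 2.65-fold. It was 1.29 ± 0.15 (SE, edgeR adjusted p = 9.6e-08) in S181E, 1.20 ± 0.15 (SE, edgeR adjusted p = 3.4e-07) in Y396E and 1.55 ± 0.17 (SE, edgeR adjusted p = 2.8e-08) in RQ. Ordered by mean, the groups ran RQ control, WT control, S181E control, Y396E control, WT arsenite, RQ arsenite, S181E arsenite and Y396E arsenite. Of neighbours in that order, RQ and WT in control, S181E and Y396E in control, and WT and RQ in arsenite overlapped in their libraries, and the others did not.

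The parental libraries, which have no bait, held 2605 CPM of ACTB in control and 3084 in arsenite, 1 library each. Without TMM factors the parental share was lower in arsenite, with 71256 of 15941432 protein-coding counts against 3859 of 742207 in control. ACTG1, the other cytoplasmic actin (ENSG00000184009.13, chr17:81509413-81523847 on the minus strand), held 1868, 1968 and 1602 CPM in WT control and 2623, 2825 and 2716 in WT arsenite, without overlap. Its log2 fold change was 0.57 ± 0.15 (SE, edgeR adjusted p = 0.0019) in WT and between 0.54 and 0.62 in the mutants, called in each. The RQ call was lost with only the RQ groups in the model (0.60, edgeR adjusted p = 0.062). The parental level of ACTG1 was 3734 CPM in control and 6473 in arsenite.

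PFN1, which loads actin monomers with ATP and feeds them to filament ends (ENSG00000108518.8, chr17:4945652-4948530 on the minus strand), held 2142, 2139 and 2102 CPM in WT control and 4326, 4346 and 3976 in WT arsenite. No library of one treatment reached the range of the other, and the rise of 0.98 ± 0.09 (SE, edgeR adjusted p = 2.8e-09) in log2 came to 1.97-fold. The mutants rose by 0.81 (S181E), 0.92 (Y396E) and 1.00 (RQ) in log2, with edgeR adjusted p of at most 5.2e-08. CFL1, which severs and depolymerises filaments (ENSG00000172757.13, chr11:65854673-65861421 on the minus strand), held 1103, 964 and 941 CPM in WT control and 1049.6, 999 and 1128 in WT arsenite. These ranges overlapped, and the log2 fold change was 0.07 ± 0.09 (SE, edgeR adjusted p = 0.53), with a 95% interval from -0.11 to 0.24.

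The Arp2/3 subunits, parts of a single complex that branches filaments, moved apart in arsenite. ARPC5 (ENSG00000162704.16, chr1:183620846-183635783 on the minus strand) held 119, 180.1 and 142 CPM in WT control and 61.2, 52.7 and 68.7 in WT arsenite, with no overlap, and fell by 2.43-fold (log2 fold change -1.28 ± 0.12 SE, edgeR adjusted p = 3.5e-09). It fell in every mutant, with log2 fold changes of -1.70 in S181E, -1.31 in Y396E and -1.64 in RQ. ACTR2, one of the actin-related subunits (ENSG00000138071.15, chr2:65227831-65271253 on the plus strand), rose from 79.5, 103 and 89.8 CPM in the WT control libraries to 133, 153 and 139 in arsenite, a log2 fold change of 0.63 ± 0.10 (SE, edgeR adjusted p = 7.8e-06). ACTR3, the other actin-related subunit (ENSG00000115091.12, chr2:113890089-113962596 on the plus strand), rose in WT from 78.3, 75.5 and 74.2 to 115, 106 and 109 CPM (log2 fold change 0.52 ± 0.10 SE, edgeR adjusted p = 7.1e-05). In the mutants its log2 fold changes were 0.26 in S181E, under the 20% limit, 0.13 in Y396E and 0.14 in RQ, and it was not called. ARPC2, part of the complex's core (ENSG00000163466.16, chr2:218217189-218254356 on the plus strand), ranged from 133 to 202 CPM over the 23 mCherry libraries, with log2 fold changes between -0.14 and 0.07 in the 4 lines, none called with TMM over all genes tested. Of the other 5 tested subunits, ARPC1A fell by 1.76 and ARPC5L by 0.54 on the log2 scale in WT, and ARPC4, ACTR3B and ARPC3 were not called.

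SRF, the transcription factor of the actin genes (ENSG00000112658.8, chr6:43171269-43181506 on the plus strand), fell in every line. The WT control libraries held 248, 194 and 243 CPM and the WT arsenite libraries 83.9, 90.8 and 92.4, without overlap, which is a fall of 2.59-fold (log2 fold change -1.37 ± 0.11 SE, edgeR adjusted p = 3.5e-10). S181E went from 217, 181.2 and 231 to 64.6, 67.5 and 77.3 CPM (-1.62 in log2), Y396E from 237, 225 and 227 to 64.1, 54.5 and 66.6 (-1.89) and RQ from 242, 253 and 225 to 82.4 and 90.1 (-1.48). With TMM factors the parental libraries went the other way, from 66.8 CPM in control to 102 in arsenite, 1 library each. As shares of protein-coding counts they differed much less, with 99 of 742207 in control and 2360 of 15941432 in arsenite. The parental rise in SRF thus depends on the scaling. ACTB, which SRF transcribes, was thus higher in the RIP after arsenite and the mRNA of SRF lower.

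With TMM factors from the 1532 genes that were no higher in the mCherry than in the parental RIP (parental-level genes), the median of all genes moved to -0.28 in WT, -0.38 in S181E, -0.42 in Y396E and -0.30 in RQ. ACTB, ACTG1 and ACTR2 were themselves among these genes, so for them this scaling is not an independent check. ACTB (between 0.80 and 1.27), PFN1, ARPC5 and SRF kept their calls in all 4 lines, whereas ACTG1 lost its call in WT (0.26), S181E (0.16) and Y396E (0.15), ACTR2 in S181E (0.16), Y396E (0.22) and RQ (0.10), and ACTR3 in WT (0.21). In Y396E cells CFL1 and ACTR3 changed sign and were called lower, at -0.29 and -0.27. With these factors CFL1 was also called lower in S181E (-0.44), and ARPC2 was called lower in WT (-0.39), S181E (-0.52) and Y396E (-0.45). The ACTR2 call in RQ also ended without RQ arsenite replicate 2 (0.32), and ACTR3 in S181E was called without S181E arsenite replicate 2 or 3 or control replicate 3, at up to 0.37.

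**Figure D2:**
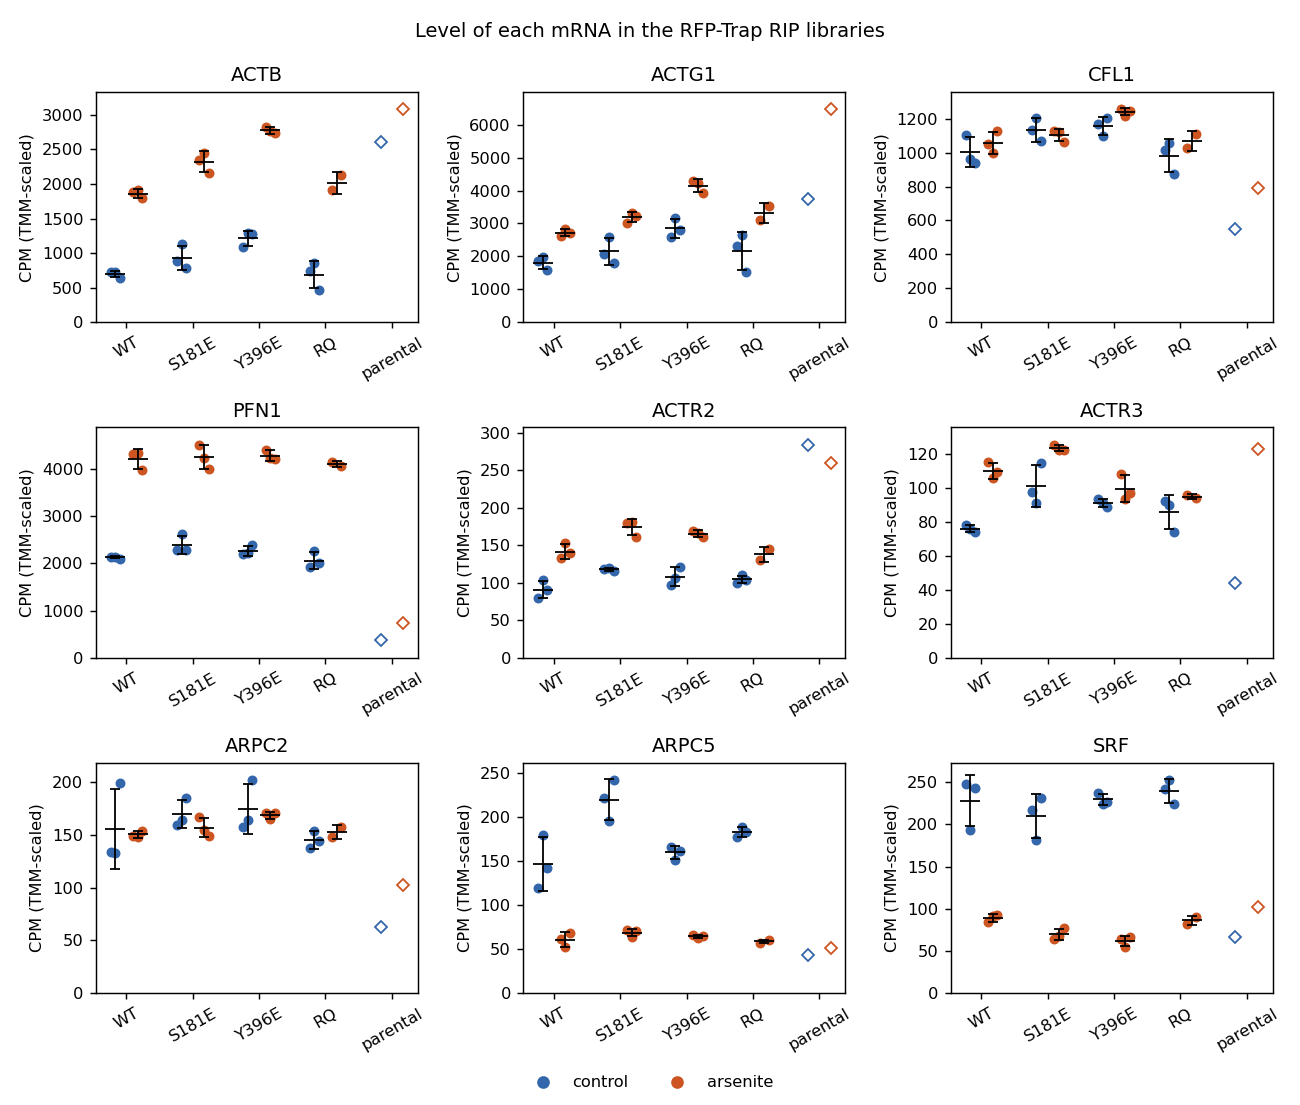
TMM-scaled CPM of each of the 9 mRNAs in every RIP library, by line, with control in blue and arsenite in orange; filled circles are mCherry libraries with their mean and SD in black, and open diamonds are the single parental libraries. Among the mCherry libraries, those in arsenite all lie above those in control for ACTB and PFN1 and below them for ARPC5 and SRF. With TMM factors the parental SRF value is higher in arsenite, by an amount that depends on the scaling. For ARPC5 the parental values were 43.2 CPM in control and 50.9 in arsenite. Their 95% exact Poisson intervals overlap (33.3 to 55.2 and 48.0 to 53.9).

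The mutants were then compared with WT in control. In the S181E RIP ACTB, ACTR2, ACTR3 and ARPC5 were higher than in WT, and in the Y396E RIP ACTB, ACTG1, ACTR2 and ACTR3 were higher. That is 4 of 9 called higher and 0 of 9 lower for S181E, where 12.8% of all genes tested were called higher and 8.0% lower. It is again 4 and 0 for Y396E, where the shares over all genes were 16.2 and 12.7%. In the RQ RIP edgeR called 0 of 9 (all genes 3.51% higher and 2.83% lower), 1 of the 9, ARPC5, had an unadjusted p under 0.05, and DESeq2 called 0. ARPC5 had 0.32 ± 0.12 (SE, edgeR adjusted p = 0.11), and was called with total counts (0.41) and without WT replicate 2. ACTG1 was called only when RQ replicate 3 was left out, at 0.46 against 0.25 with it.

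For ACTB, every Y396E control library (1089, 1287 and 1270.0 CPM) lay above every WT control library (723, 722 and 644 CPM), a log2 fold change of 0.82 ± 0.15 (SE, edgeR adjusted p = 0.00029) or 1.76-fold. The S181E libraries (894, 1125 and 784 CPM) also lay above all WT libraries, with 0.43 ± 0.15 (SE, edgeR adjusted p = 0.043), or 1.35-fold. This S181E call was weak: leaving out any one WT library, or S181E replicate 1 or 2, ended it, with log2 fold changes from 0.28 to 0.54 over the 6 libraries left out in turn. The RQ libraries (741, 852 and 470.4 CPM) spanned the WT range, and the difference was -0.02 ± 0.15 (SE, edgeR adjusted p = 0.96), with a 95% interval from -0.31 to 0.28. It was 0.20 without RQ replicate 3, the lowest of the 3. The bait's mRNA was at 93.0 ± 19.3 CPM (SD, n = 3) in Y396E, 66.3 ± 1.51 CPM (SD, n = 3) in S181E, 111 ± 10.4 CPM (SD, n = 3) in RQ and 66.4 ± 4.82 CPM (SD, n = 3) in WT. Its part in the ACTB differences was not tested.

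ACTG1 held 2589, 3166 and 2800.1 CPM in the Y396E control libraries and 1868, 1968 and 1602 in WT, without overlap, and was 1.59-fold higher (log2 fold change 0.67 ± 0.15 SE, edgeR adjusted p = 0.0020). In S181E it was at 2074, 2603 and 1795 CPM, a range that overlapped with WT, with 0.26 ± 0.15 (SE, edgeR adjusted p = 0.24). ARPC5 was the largest difference of the 9 in S181E, with 222, 196 and 242 CPM against 119, 180.1 and 142 in WT, or 0.60 ± 0.12 (SE, edgeR adjusted p = 0.0011) in log2. The libraries of the groups did not overlap, although the WT libraries themselves spread widely. ACTR2 held 118, 120.1 and 115 CPM in S181E and 96.5, 106 and 121 in Y396E against 79.5, 103 and 89.8 in WT, so the Y396E libraries overlapped with WT and the S181E libraries did not. Its log2 fold changes were 0.39 ± 0.10 (SE, edgeR adjusted p = 0.0086) in S181E and 0.27 ± 0.10 (SE, edgeR adjusted p = 0.046) in Y396E. ACTR3 was higher by 0.42 ± 0.10 (SE, edgeR adjusted p = 0.0043) in S181E and 0.28 ± 0.10 (SE, edgeR adjusted p = 0.040) in Y396E, with no overlap with WT in either. PFN1, CFL1, ARPC2 and SRF were not called in any mutant in control, and their log2 fold changes ran from -0.11 (SRF in S181E) to 0.22 (CFL1 in Y396E).

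Scaling mattered for these small differences. Total counts without TMM factors moved the median of all genes to 0.22 in S181E and 0.32 in Y396E, and TMM over parental-level genes moved it to 0.02 and -0.13. Under the latter ACTB stayed called in Y396E (0.63, edgeR adjusted p = 0.0011) and S181E (0.40, edgeR adjusted p = 0.047), while ACTR2 (0.09) and ACTR3 (0.09) lost their calls in Y396E. With a model of S181E and WT control alone, or Y396E and WT control alone, none of the 4 S181E calls remained (edgeR adjusted p = 0.062 for ARPC5 to 0.18 for ACTR2), at log2 fold changes of 0.41 for ACTB, 0.36 for ACTR2, 0.39 for ACTR3 and 0.56 for ARPC5. ACTR2 (0.25) and ACTR3 (0.26) lost theirs in Y396E. The ACTR2 call in Y396E also ended without WT replicate 1 or 3 or Y396E replicate 2 or 3 (log2 fold changes 0.17 to 0.37 over the 6 libraries left out in turn), and the ACTR3 call without any library except WT replicate 1 (0.24 to 0.30). Genes not called with all libraries were called without 1 WT control library in ARPC2 (replicate 3, both mutants, up to 0.40), ARPC5 (replicate 2, Y396E, 0.31) and CFL1 (replicate 1, Y396E, 0.30).

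In arsenite the Y396E RIP again held more of both actins, and less SRF, than WT. There 2 of 9 were called higher and 1 of 9 lower, where 13.1% of all genes tested were called higher and 19.4% lower. ACTB held 2828, 2768 and 2733 CPM in Y396E and 1885, 1911 and 1792 in WT, and ACTG1 4304, 4222 and 3924 and 2623, 2825 and 2716. In both genes all Y396E libraries lay above all WT libraries. Both nevertheless stayed below the parental level in Y396E, at ratios of 0.900 ± 0.0155 for ACTB and 0.641 ± 0.0309 for ACTG1 (SD, n = 3). In control the Y396E ratios were 0.467 ± 0.0421 and 0.764 ± 0.0782 (SD, n = 3). The log2 fold changes were 0.61 ± 0.15 (SE, edgeR adjusted p = 0.0036) for ACTB, or 1.52-fold, and 0.64 ± 0.15 (SE, edgeR adjusted p = 0.0026) for ACTG1. SRF was at 64.1, 54.5 and 66.6 CPM in Y396E against 83.9, 90.8 and 92.4 in WT, without overlap, and was 1.41-fold lower (log2 fold change -0.50 ± 0.11 SE, edgeR adjusted p = 0.0016). CFL1 passed the adjusted p but not the 20% limit (0.26 ± 0.09 SE, edgeR adjusted p = 0.032), and ACTR2 had 0.26 ± 0.10 (SE, edgeR adjusted p = 0.0503). CFL1 was called without WT replicate 3 and ACTR2 without WT replicate 2, at 0.30 and 0.31. TMM over parental-level genes moved the median of all genes to -0.26 and lowered ACTB to 0.34, still called (edgeR adjusted p = 0.047). It also brought ACTR3 to -0.38, called lower there and at -0.12 with TMM over all genes. The bait's mRNA was at 52.1 ± 0.132 CPM (SD, n = 3) in Y396E, 41.4 ± 0.741 CPM (SD, n = 3) in S181E, 80.6 ± 1.49 CPM (SD, n = 2) in RQ and 40.1 ± 2.67 CPM (SD, n = 3) in WT, and its part was not tested.

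For S181E in arsenite edgeR called 0 of 9 (all genes 2.20% higher and 5.34% lower), with ACTB, ACTR2 and SRF, 3 of the 9, at an unadjusted p under 0.05, and DESeq2 called 2, ACTR2 and SRF. ACTB held 2352, 2456 and 2166 CPM, above all WT libraries, but its difference of 0.32 ± 0.15 (SE, edgeR adjusted p = 0.24) did not pass, and its 95% interval, not adjusted for the number of genes, ran from 0.02 to 0.61. SRF held 64.6, 67.5 and 77.3 CPM, below all WT libraries, with -0.36 ± 0.11 (SE, edgeR adjusted p = 0.053), and was called without S181E replicate 3, when it reached -0.43. With only the S181E and WT arsenite groups in the model, ACTB (0.32), ACTR2 (0.30) and SRF (-0.35) were each called. For RQ in arsenite edgeR called 0 of 9 (all genes 0.286% higher and 0.218% lower), 0 had an unadjusted p under 0.05, and DESeq2 called 0. The RQ libraries held 1908 and 2130.1 CPM of ACTB, one within and one above the WT range, with 0.12 ± 0.17 (SE, edgeR adjusted p = 0.87) and a 95% interval from -0.20 to 0.45.

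**Figure D3:**
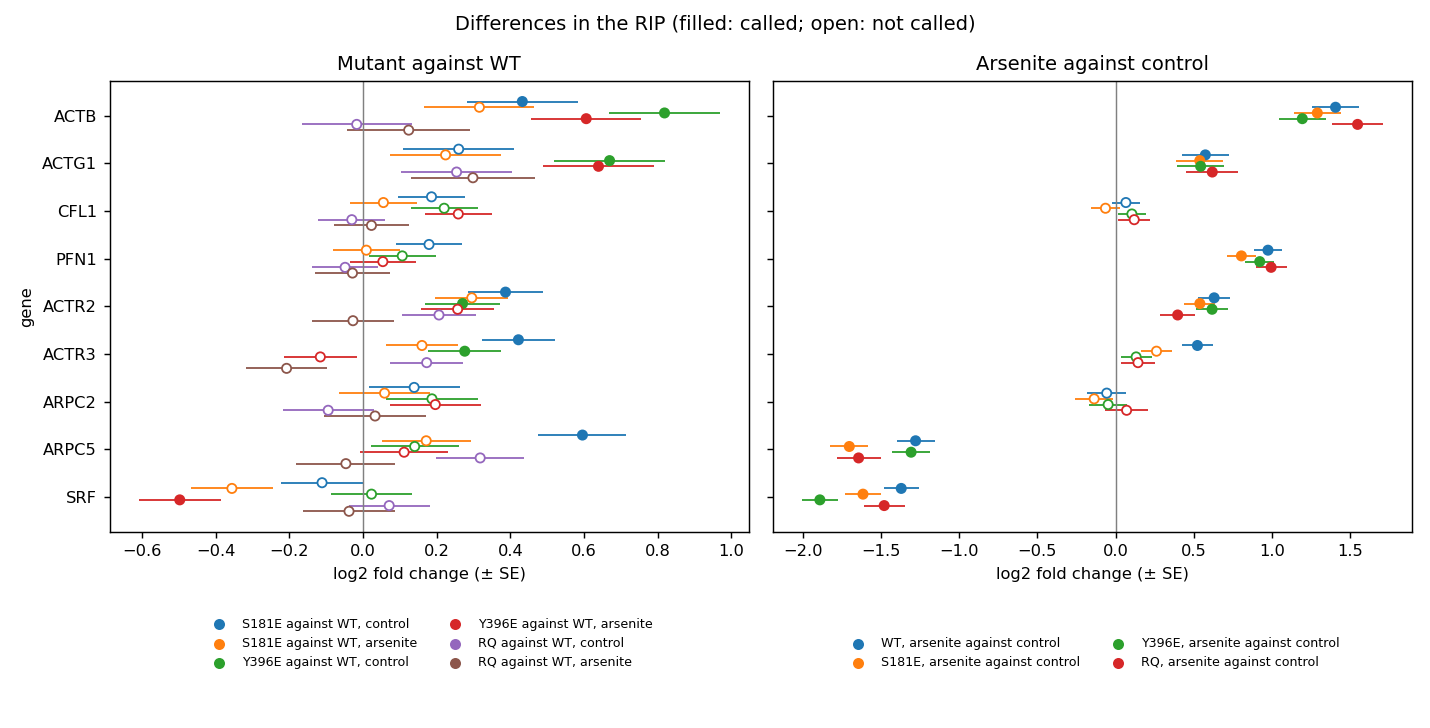
log2 fold change with its SE from edgeR for each of the 9 genes, mutants against WT on the left and arsenite against control on the right; filled points were called. On the left the called points lie between -0.50 (SRF, Y396E in arsenite) and 0.82 (ACTB, Y396E in control), and on the right between -1.89 and 1.55.

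Whether a mutant responded to arsenite differently from WT was tested with the interaction of line and treatment, and edgeR called 0 of 9 genes in each of the 3 mutants. Over all genes 0.389% were called for S181E, 2.85% for Y396E and 0.0687% for RQ, in either direction. Of the 9, 1 had an unadjusted p under 0.05 for S181E (ARPC5, -0.42), 2 for Y396E (ACTR3, -0.39, and SRF) and 1 for RQ (ACTR3, -0.38), and DESeq2 called 0 in each. The ACTB interaction was -0.12 ± 0.21 (SE, edgeR adjusted p = 0.86) for S181E, -0.21 ± 0.21 (SE, edgeR adjusted p = 0.65) for Y396E and 0.14 ± 0.22 (SE, edgeR adjusted p = 0.89) for RQ, so the 95% interval for Y396E ran from -0.63 to 0.20. SRF had the lowest value for Y396E, -0.52 ± 0.16 (SE, edgeR adjusted p = 0.072), and was called with total counts (-0.57), with all biotypes (-0.58) and without WT control replicate 1. The comparisons above share libraries, so the Y396E values in control, in arsenite and over treatment are not independent of each other.

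**Figure D4:**
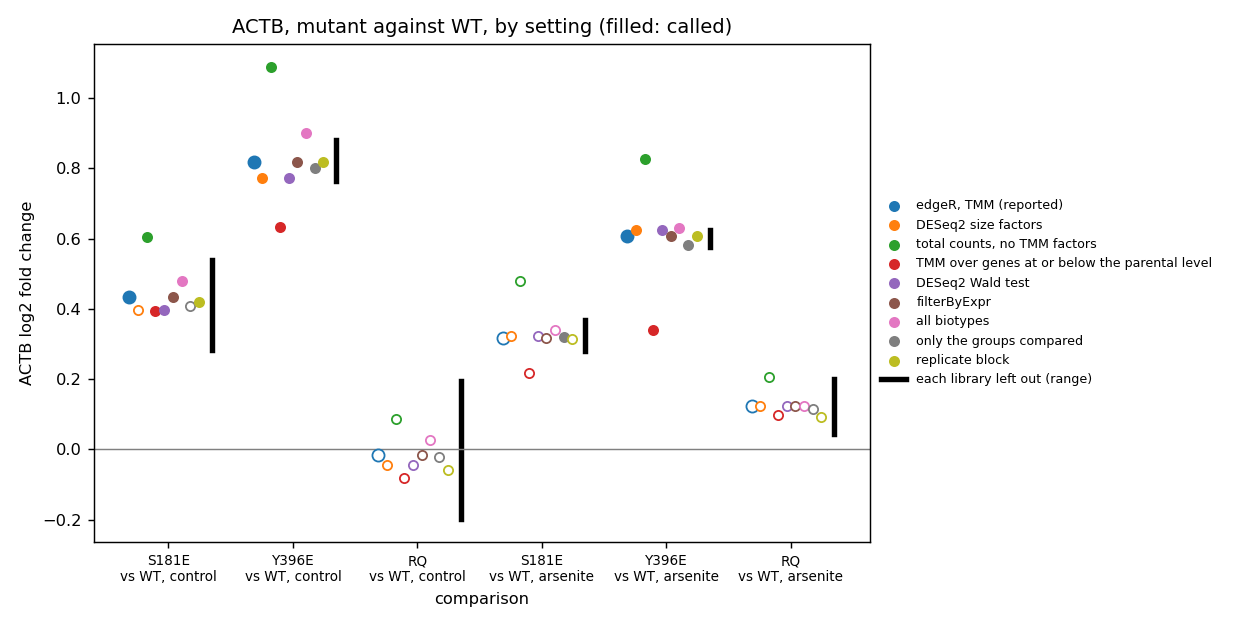
ACTB log2 fold change of each mutant against WT under each setting tried, with filled points called and the black bar giving the range when each library was left out. Y396E stays above 0 and called under all 9 settings in control (0.63 to 1.09) and in arsenite (0.34 to 0.83), and RQ lies on both sides of 0 in control.

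The rest of the actin system was followed in 89 further genes, listed by textbook role, of which 75 were tested. In WT arsenite against control 38 rose and 18 fell (median log2 fold change 0.44, against 0.03 over all genes), where 35.4% of all genes tested were called higher and 31.8% lower. Among cross-linkers and membrane linkers 9 of 11 were called higher and 0 lower, and among the activators of the Arp2/3 complex 7 of 9 higher and 1 lower, while monomer-binding and severing factors, CFL1 and PFN1 included, split into 6 higher and 8 lower of 18. The 3 highest were the filamin FLNC, which cross-links filaments into networks, at 2.71 ± 0.11 (SE, edgeR adjusted p = 1.1e-14), CYFIP1, a subunit of the WAVE complex that activates Arp2/3, at 1.67 ± 0.09 (SE, edgeR adjusted p = 3.8e-13), and FSCN1, the bundling protein fascin, at 1.63 ± 0.09 (SE, edgeR adjusted p = 7.6e-13) in log2. FLNC went from 40.4 ± 5.95 CPM (SD, n = 3) in control to 267 ± 4.75 CPM (SD, n = 3) in arsenite. The 3 lowest were the Arp2/3 subunit ARPC1A at -1.76 ± 0.09 (SE, edgeR adjusted p = 2.8e-13), the cofilin phosphatase SSH1 at -1.59 ± 0.15 (SE, edgeR adjusted p = 3.1e-09), and TMSB10, a thymosin that binds monomers, at -1.08 ± 0.21 (SE, edgeR adjusted p = 8.5e-05). ARPC1A went from 109.5 ± 7.49 CPM (SD, n = 3) to 32.6 ± 0.973 CPM (SD, n = 3).

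For Y396E against WT in arsenite 22 of these 75 genes were called higher and 13 lower (median 0.14, against 0.01 over all genes), where 13.1% of all genes tested were called higher and 19.4% lower, so the lower share is near that of all genes. FLNA, the ubiquitous filamin, was highest at 1.09 ± 0.30 (SE, edgeR adjusted p = 0.0073), with 854 ± 32.9 CPM (SD, n = 3) against 409 ± 27.5 CPM (SD, n = 3) in WT, followed by TWF2, a twinfilin that binds monomers and caps filaments, at 0.78 ± 0.21 (SE, edgeR adjusted p = 0.0075), and the monomer-binding thymosin TMSB4X at 0.77 ± 0.20 (SE, edgeR adjusted p = 0.0049). ENAH, which promotes filament elongation, was lowest at -0.84 ± 0.16 (SE, edgeR adjusted p = 0.00040), followed by the SRF coactivator MRTFB at -0.81 ± 0.15 (SE, edgeR adjusted p = 0.00026) and the WAVE protein WASF1 at -0.79 ± 0.13 (SE, edgeR adjusted p = 5.3e-05). The activators of Arp2/3 had 1 of 9 called higher and 5 lower, with a median of -0.31, and the cross-linkers 4 of 11 higher and 1 lower. For S181E in arsenite 4 of the 75 were called higher and 2 lower (all genes 2.20% higher and 5.34% lower). SSH3, a cofilin phosphatase, was lower, with a log2 fold change of -0.66, and so was FHL2, an SRF target that binds SRF, with -0.56, while CAP1, which recycles monomers, was higher by 0.42, the calponin-family TAGLN2 by 0.40 and the tropomyosin TPM3 by 0.36, with edgeR adjusted p of at most 0.030. For RQ in arsenite 1 of the 75 was called (all genes 0.286% higher and 0.218% lower), WDR1, a cofilin partner, at 0.45 ± 0.10 (SE, edgeR adjusted p = 0.032). In control 13 of the 75 were called higher and 3 lower for S181E (all genes 12.8% and 8.0%), 20 and 4 for Y396E (all genes 16.2% and 12.7%) and 4 and 2 for RQ (all genes 3.51% and 2.83%).

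Across the 23 mCherry libraries, the genes whose log2 CPM followed ACTB most closely were TBRG4 (Pearson r = 0.991), TUBB4B (Pearson r = 0.989), CDC20 (Pearson r = 0.988), EIF4A3 (Pearson r = 0.987) and XPNPEP1 (Pearson r = 0.986) out of 8733. These are a mitochondrial RNA-binding protein, a β-tubulin, a mitotic regulator, an exon junction helicase and a peptidase, and none belongs to the actin lists. The libraries share the difference between treatments, and within groups, after each group's mean was taken off, the same genes had r between 0.83 and 0.90. By Spearman's rho their places among all genes were 23, 20, 40, 18 and 6, so none of them was among the 5 nearest by that measure. Among the 9, ACTG1 followed ACTB with r = 0.92 over all libraries and 0.95 within groups, and PFN1 with 0.93 and 0.56. ARPC5 and SRF ran against it over all libraries, at -0.86 and -0.92, but only weakly within groups, at -0.23 and -0.15. These are descriptions over 23 libraries that share groups and treatment.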

How the data were processed

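RIP-seq counts per gene were deposited by the authors as raw counts, 1 file per library. Per the labels and the study's methods, 100-base single reads were demultiplexed with bcl2fastq, aligned to hg38 with STAR and counted over exons by featureCounts (Subread 2.0.6) with GENCODE 46, reverse-stranded, without multi-mapped reads or reads over more than 1 gene. Sense and antisense genes were therefore separated, and reads that fit several copies of a gene were lost. rRNA had been depleted.

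The counts were analysed in R 4.3.3. Symbols came from GENCODE 44. Of 63086 gene IDs, 61547 matched with their version, 62541 without it and 545 not at all, the latter with at most 0.0298% of a library's counts. The 8734 protein-coding genes with over 10 CPM in 12 or more of the 23 mCherry-IGF2BP1 libraries were normalized with TMM and tested with edgeR 4.0.16 (glmQLFit and glmQLFTest) in a single model of the 8 mCherry groups. P-values were adjusted over all genes tested with the Benjamini-Hochberg method, and calls needed both an adjusted p under 0.05 and a difference over 20%. The parental libraries entered no test. The mutants share the same WT libraries. Groups came from the sample labels, and 0 pairs of libraries held identical counts.

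The 9 genes and the lists of actin-related genes were chosen with earlier results of these data known. Further genes were named by rule: per comparison of a mutant with WT in arsenite, and of WT arsenite with control, up to 3 called list genes at each end of the fold changes, and the 5 genes with the highest Pearson correlation with ACTB. The alternatives were DESeq2 size factors, total counts, TMM over genes no higher in the mCherry than in the parental RIP (parental-level TMM), the DESeq2 1.42.0 Wald test, filterByExpr, all biotypes, only the groups compared, the replicate number as a block, each library left out, the other parental library and Spearman correlation. The edgeR scripts were tested on simulated data. Libraries of S181E and WT in arsenite with the same replicate number deviated together, with correlations of 0.28 to 0.39 over the 3 pairs. From the data alone they were taken as paired there. The values given for this comparison still come from the model without pairing. With the replicate block, its ACTB log2 fold change was 0.31 (edgeR adjusted p = 0.28). Counting intervals (95%, exact Poisson) are given for the single parental libraries only, and elsewhere the error is the spread between libraries. The 95% intervals of log2 fold changes were taken from the SE by a normal approximation. They are somewhat narrower than the edgeR test implies.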

Additional observations from a re-analysis of the deposited data

How the results depend on the processing

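Over the settings tried, the ACTB calls for Y396E against WT in both treatments and for arsenite against control in all 4 lines kept their direction and their side of the threshold, left-out libraries included. The ACTB call for S181E in control was lost with DESeq2 size factors (log2 fold change 0.40) and with only the groups compared (0.41), and ran from 0.28 to 0.54 over left-out libraries. In arsenite ACTB passed for S181E with only the groups compared (0.32). For RQ in control ACTB was 0.086 with total counts and 0.027 with all biotypes, and -0.20 to 0.20 over left-out libraries. Its interaction ran from -0.22 to 0.034 for S181E and -0.072 to 0.32 for RQ over left-out libraries. Over the parental RIP the WT ratio was 0.116 (control) and 0.367 (arsenite) with total counts, and 0.226 in control with the parental arsenite library as background.

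Of the 9 genes, the number called moved as follows. With total counts it was 7 (S181E control), 9 (Y396E control), 1 (RQ control), 2 (S181E arsenite), 8 (Y396E arsenite) and 1 (Y396E interaction). For Y396E in control it was 2 with DESeq2 size factors, parental-level TMM, the DESeq2 Wald test, filterByExpr and only the groups compared, and 2 to 4 over left-out libraries. For Y396E in arsenite it was 5 with DESeq2 size factors, the DESeq2 Wald test and all biotypes. For S181E in arsenite it was 1 with parental-level TMM, 2 with the DESeq2 Wald test, 1 with all biotypes, 3 with only the groups compared and 0 to 1 over left-out libraries. With only the groups compared it was 0 for S181E in control and 1 for RQ in arsenite. The Y396E interaction gave 1 with all biotypes and 0 to 1 over left-out libraries, and RQ in control 0 to 1. CFL1 (-0.29) and ACTR3 (-0.27) reversed for Y396E arsenite against control with parental-level TMM. The causes were not tested.

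With the replicate block, 1 gene was called for RQ in control (ARPC5, 0.34), and ACTR3 was called for S181E arsenite against control (0.27). No other member's call changed with the block. Numbers were taken to pair libraries where 3 or more pairs all had a correlation of deviations over 0.1, which S181E against WT in arsenite met. The other comparisons of 3 pairs had at least 1 pair below this, and RQ in arsenite has only 2 pairs, at 0.14 and 0.21 against WT. The single parental library per treatment, 1238013 counts deep in control, limits all ratios over the parental RIP, and the 2 RQ arsenite libraries limit RQ.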
